A study of Mus musculus with 24 samples.

Results

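Genes that write, copy, remove and protect DNA methylation were followed in RNA-seq libraries of mouse preimplantation embryos with and without transcripts of the endogenous retrovirus MERVL. The set holds 10 genes, taken by name from the 55291 genes counted in every library and chosen with earlier results of these data known. They are Dnmt1 and Uhrf1, which copy methylation at replication, Dnmt3a, Dnmt3b and Dnmt3l, which set new methylation, Tet1, Tet2 and Tet3, which oxidise it, and Dppa3 and Zfp57, which protect it. All 10 passed the filter on low counts at every stage, with between 201 and 47995 counts in a library.

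Zygotes of B6D2F1 mice received an injection into the male pronucleus of antisense oligonucleotides (ASOs, which bind an RNA by base pairing and cause its cleavage) at 20 µM. Control embryos received a scrambled ASO and MERVL-KD embryos a mix of 3 ASOs against MERVL, so injection and culture were common to both groups. Embryos were collected at the 2-cell stage (1.5 days post-coitum) and at the 4-cell and 8-cell stages, to which the labels give the same time (2.5 days post-coitum). The authors report a delay of MERVL-KD embryos from that time. A larger share of them than of controls was then still at the 2-cell to 4-cell stage, and almost none later formed a blastocyst. Embryos for the libraries were picked by cleavage stage under the microscope, so the groups were matched by stage. Whether the 4-cell and 8-cell pools also match in the share of embryos that had reached that stage was not tested. Each library pooled 30 embryos, and each of the 6 groups held 2 biological replicates, so there were 12 libraries and a p-value measures the spread between such pools. The strain label reads BDF2, whereas the methods name B6D2F1.

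After fertilisation the paternal genome loses methylation by oxidation through Tet3, and methylation of both genomes is then diluted at each division because Dnmt1 and its partner Uhrf1 are largely kept out of the nucleus. Dppa3 (also called Stella), a maternal protein, shields the maternal genome from Tet3 and restrains Uhrf1. Zfp57, a zinc-finger protein, binds methylated imprinted regions with the corepressor Trim28 and keeps them methylated. Dnmt3a and Dnmt3b act later, around implantation, with Dnmt3l as a cofactor that is also made in the oocyte.

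The oligonucleotides are shown because they define the groups, written in lower case from 5′ to 3′.
MERVL-ASO1: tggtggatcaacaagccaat
MERVL-ASO2: catttgtctgtttaccacga
MERVL-ASO3: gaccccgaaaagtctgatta
Scramble-ASO: agcgcgggtattgaaccagg
None of the 10 genes carried, on its transcribed strand, a site for any of these ASOs with up to 4 mismatches in GRCm38. A site for a MERVL ASO was found in 1363 of the 55291 genes (2.47%) at up to 4 mismatches. With up to 2 mismatches 176 genes (0.318%) had a MERVL ASO site. Sites of the scrambled ASO are not part of these counts over all genes. The nearest MERVL ASO site with up to 2 mismatches on either strand lay 68.8 kb from Tet1, 282 kb from Dnmt1, and between 429.9 and 4695 kb from the other members, beside a median over all genes of 1043 kb. Tet1, Dnmt1, Dppa3, Zfp57 and Tet2 were nearer than that median and the other members farther.

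MERVL-int, the part of MERVL between its long terminal repeats, held from 1.07% to 6.57% of the counts in the 6 control libraries and from 0.0278% to 0.157% in the 6 MERVL-KD libraries. Library totals ranged from 28167085 to 41482526 counts. Between 71.8% and 74.7% of genes with up to 50 counts held an even count, so mates were mostly counted one by one and the true counting error exceeds that of the printed counts. Summed markers of cumulus and granulosa cells lay between 21.3 and 28.3 CPM (counts per 1000000 of the scaled library size) in all libraries and those of sperm between 0.290 and 2.04 CPM, with some of their genes at 0 in every library. In these pools of embryos, fewer cells expressing a gene and less RNA per cell cannot be told apart.

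In control embryos the set split between the 2-cell and the 4-cell stage into genes that fell, genes that rose and one that passed no test. Zfp57, Tet3, Uhrf1, Dnmt3l and Dnmt1 fell, whereas Tet1, Tet2, Dnmt3b and Dppa3 rose. Rises and falls here are relative to the scaled library, and amounts per embryo were not measured. A change of at least 2-fold at an adjusted p under 0.05 (quasi-likelihood test of edgeR, Benjamini-Hochberg over all tested genes and repeat types) is named a call here. Calls were made for 6 of 10 members, 2 higher and 4 lower, where 45% of all genes were called, 20.7% higher and 24.3% lower. By the adjusted p alone 9 of 10 passed, 4 higher and 5 lower, where 55.1% of all genes did, 26.4% higher and 28.7% lower. The median log2 fold change was -0.29 for the members and -0.06 for all genes.

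**Figure D1:**
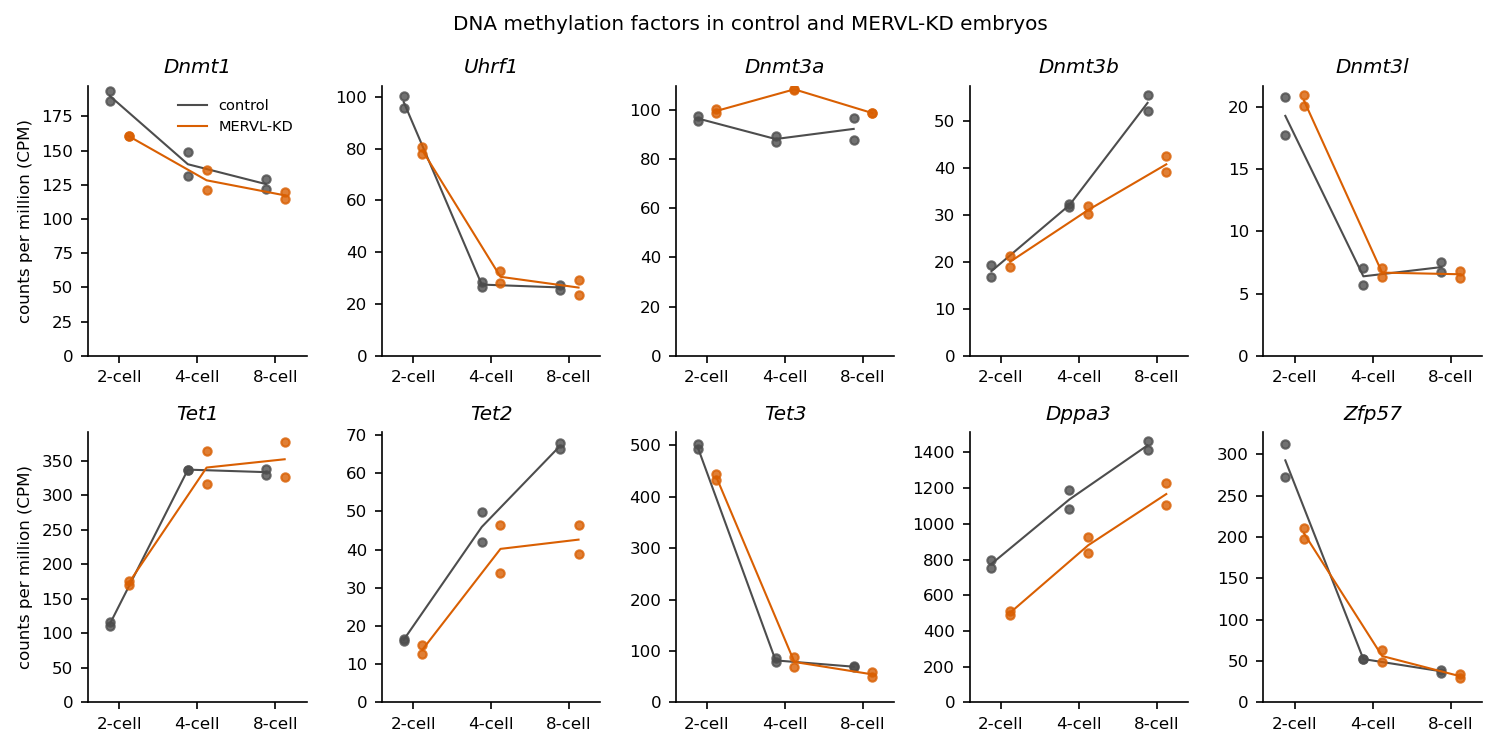
CPM (vertical axis, from 0) of each of the 10 genes in 2-cell, 4-cell and 8-cell embryos; points are single libraries of control (grey) and MERVL-KD (orange) embryos and lines join the means of 2 libraries. Tet3, Zfp57, Uhrf1 and Dnmt3l are highest at the 2-cell stage in both groups, and the MERVL-KD libraries of Dppa3 lie under the control libraries at every stage.

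The maintenance pair moved unequally. Dnmt1, the enzyme that copies methylation onto the new strand, was counted at 186 and 193 CPM in the control 2-cell libraries, 131 and 149 CPM at the 4-cell stage and 122 and 129 CPM at the 8-cell stage. Uhrf1, which recruits Dnmt1 to hemimethylated DNA, was at 100.3 and 95.6 CPM, then 26.4 and 28.6 CPM, then 27.4 and 25.4 CPM. The 2-cell libraries were above all later ones for both genes. Between the 2-cell and 4-cell stages Dnmt1 fell by 0.44 on the log2 scale (standard error, SE, 0.10, adjusted p = 0.000794 by edgeR's quasi-likelihood test) and Uhrf1 fell by 1.83 (0.13, adjusted p = 1.51e-10). Neither passed between the 4-cell and 8-cell stages, with log2 fold changes of -0.16 and -0.06. Uhrf1 has a copy at X:121334000-121336583 (Gm5648) that matches 71.9% of its transcript at 97% identity or more, so reads common to both were not counted. Gm5648 itself held 24 to 98 counts in a library.

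Among the de novo enzymes the 3 genes took different courses. Dnmt3a was at 95.5 and 97.2 CPM in control 2-cell, 89.3 and 86.7 CPM in control 4-cell and 87.6 and 96.7 CPM in control 8-cell libraries. It was the member that passed no test between stages, with log2 fold changes of -0.13 and 0.07 (SE 0.10 for both). Dnmt3b rose from 19.4 and 16.7 CPM to 31.8 and 32.4 CPM and then to 52.2 and 55.5 CPM. Each step passed the test, with log2 fold changes of 0.83 (SE 0.14, adjusted p = 2.65e-05) and 0.75 (0.14, adjusted p = 0.00255) by edgeR's quasi-likelihood test. Dnmt3l, which has no catalytic activity and stimulates the other two, fell from 20.8 and 17.8 CPM to 5.70 and 7.09 CPM and stood at 7.51 and 6.77 CPM in 8-cell embryos. The first step was a log2 fold change of -1.59 (SE 0.21, adjusted p = 8.78e-07) and the second 0.16 (0.21, adjusted p = 0.745). Dnmt3l overlaps Aire, a gene on the other strand, and the strand setting of the counting is not given in the sources used here. Dnmt3a, Dnmt3b, Tet2 and Tet3 also overlap a gene on the other strand. On the same strand, Dnmt1 overlaps Mir7081, Tet1 overlaps Gm48353 and Gm26479, and Tet3 overlaps Mir6374 and 5430434F05Rik.

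The Tet genes exchanged places. Tet3, the oxidase stored in the oocyte, fell from 502 and 492 CPM in control 2-cell embryos to 78.0 and 85.5 CPM at the 4-cell stage, a log2 fold change of -2.61 (SE 0.12, adjusted p = 1.03e-13 by edgeR's quasi-likelihood test). Tet1 rose from 110.4 and 117 CPM to 337 CPM in both 4-cell libraries, a log2 fold change of 1.57 (0.10, adjusted p = 1.52e-11), and was at 338 and 329 CPM at the 8-cell stage. Tet2 rose at both steps. It was at 16.7 and 16.1 CPM, then 49.9 and 42.0 CPM, then 66.3 and 67.9 CPM, with log2 fold changes of 1.49 (0.16, adjusted p = 6.84e-08) and 0.55 (0.16, adjusted p = 0.0408). The second rise of Tet2 lost its adjusted p when any 1 of the 4 control libraries was left out, at values between 0.0629 and 0.296.

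Per kilobase of exon, which allows genes to be compared, Tet3 made up 78.2% ± 0.775 of the summed Tet level in control 2-cell embryos (SD, n = 2) and 16.6% ± 1.10 at the 4-cell stage. The share of Tet1 went from 19.3% ± 0.825 to 74.1% ± 0.0241 and was 72.6% ± 0.389 at the 8-cell stage. Tet2 made up 2.55% ± 0.0508, 9.26% ± 1.12 and 13.4% ± 0.409. Within the Dnmt3 genes, Dnmt3l led at the 2-cell stage with 40.8% ± 1.96 beside 36.8% ± 2.84 for Dnmt3a. At the 8-cell stage Dnmt3b led with 57.1% ± 0.412, and Dnmt3l stood at 13.0% ± 1.42. The exon lengths are those of the union of all annotated exons and understate a gene with long unused exons.

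**Figure D2:**
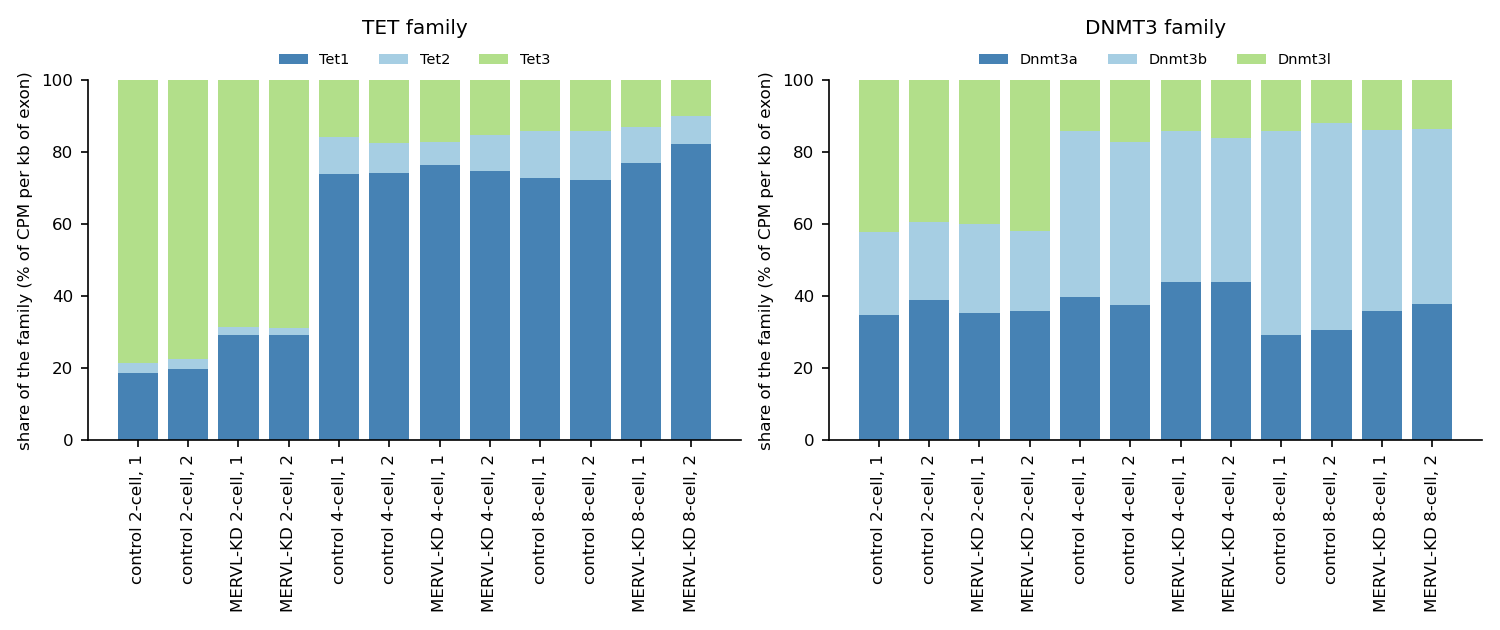
Share of each gene in the summed CPM per kilobase of exon of its family (vertical axis, percent) in each of the 12 libraries, for Tet1, Tet2 and Tet3 (left) and Dnmt3a, Dnmt3b and Dnmt3l (right). Tet3 holds most of the Tet level at the 2-cell stage and Tet1 at the later stages, and the 2 MERVL-KD 2-cell libraries have more Tet1 (29.1% and 29.3%) than the controls (18.7% and 19.9%).

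The protectors went in opposite directions. Dppa3 rose from 754 and 798 CPM in control 2-cell embryos to 1189 and 1086 CPM and then to 1416 and 1463 CPM, with log2 fold changes of 0.55 (SE 0.09, adjusted p = 1.81e-05) and 0.34 (0.09, adjusted p = 0.0266) by edgeR's quasi-likelihood test. Zfp57 fell from 312 and 273 CPM to 52.5 and 52.3 CPM and then to 35.5 and 39.7 CPM, with log2 fold changes of -2.48 (0.13, adjusted p = 5.34e-13) and -0.48 (0.12, adjusted p = 0.0255). The second steps of Dppa3 and Zfp57 also lost their adjusted p without any 1 of the 4 libraries, at values between 0.0688 and 0.265 for Dppa3 and between 0.0514 and 0.233 for Zfp57. Between the control 4-cell and 8-cell stages no member was called, beside 1.56% of all genes, and 4 of 10 passed the adjusted p, beside 5.87%.

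Dppa3 was the highest of the set on the scale of CPM per kilobase at every stage, at or above the 99.95th percentile of all genes in all libraries. In control 2-cell embryos its 870 CPM per kilobase was followed by Zfp57 at 77.3, Tet3 at 29.8, Dnmt1 at 25.7, Uhrf1 at 23.0, Tet1 at 7.34, Dnmt3l at 6.46, Dnmt3a at 5.79, Dnmt3b at 3.53 and Tet2 at 0.972, and the libraries of no neighbours in that order overlapped. At the 4-cell stage Tet1 (21.8) and Dnmt1 (19.0) stood behind Dppa3 (1275), and the libraries of Uhrf1 (6.46) and Dnmt3b (6.29) overlapped. By the 8-cell stage Dnmt3b (10.5) had come level with Zfp57 (9.92), the only neighbours whose libraries overlapped, and Dnmt3l was last at 2.39. These orders rest on the union of annotated exons, which is 16642 bases for Dnmt3a and 16870 for Tet2. Their longest coding transcripts have 9685 and 9179 bases. The orders were not taken again with transcript lengths, which could move neighbours and make their libraries overlap. Of the Dppa3 transcript 98.1% is matched at 97% identity or more by X:37625379-37626197 (Dppa3-ps, 655 to 2161 counts in a library), so its counts cover only reads that aligned to the gene alone.

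The windows from 250 bases before to 50 bases after a start in RefSeq (GRCm38.p6) were at hand for 9 members, 18 windows in all. The number of CpG pairs, the letters CG on one strand, which is where methylation is set, differed widely among them. The Tet2 window held 57 and the 3 Dnmt3a windows 46, 47 and 18, beside a median of 7 over 32851 windows with quartiles of 3 and 20. The 3 Zfp57 windows held 6, 9 and 4 and the 3 Dnmt3l windows 6, 4 and 3, so these 2 genes that fell after the 2-cell stage had a content close to the median. Uhrf1 (12 and 33), Tet3 (22), Tet1 (17) and Dnmt3b (30) lay above that median in each window, and Dnmt1 (33, 12 and 2) in 2 of 3. The part before the start is shown for Tet2, which rose, and for the first start of Zfp57, which fell, with CG in capitals, at chr3:133544391-133544640 on the minus strand and chr17:37000913-37001162 on the plus strand. This pair was chosen after the values had been seen.
Tet2: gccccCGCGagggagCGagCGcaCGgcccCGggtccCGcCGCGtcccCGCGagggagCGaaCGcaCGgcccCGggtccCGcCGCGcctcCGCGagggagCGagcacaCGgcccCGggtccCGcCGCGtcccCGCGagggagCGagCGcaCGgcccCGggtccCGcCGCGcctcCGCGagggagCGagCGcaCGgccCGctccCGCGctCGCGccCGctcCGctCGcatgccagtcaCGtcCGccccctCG
Zfp57: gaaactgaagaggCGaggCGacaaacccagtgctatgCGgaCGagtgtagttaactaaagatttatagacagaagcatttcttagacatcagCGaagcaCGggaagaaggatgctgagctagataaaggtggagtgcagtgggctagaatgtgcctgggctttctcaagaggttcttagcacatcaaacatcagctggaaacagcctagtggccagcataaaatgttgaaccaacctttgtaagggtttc
These letters hold 51 CpG pairs for Tet2 and 6 for Zfp57.

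Over the 12 libraries the genes most like each member, by Pearson's r of log2 CPM among 9656 genes with a mean of at least 5 CPM, came out as follows. For Tet3 they were Plekha3, Laptm4b and Sfmbt1 (r = 0.998, 0.997 and 0.997), and for Zfp57 they were Ccni, A430033K04Rik and Nlrp4f (0.996, 0.995 and 0.995). Uhrf1 went with Zfp813-ps, Obox1 and Ifit1bl2 (0.997, 0.996 and 0.996) and Dnmt3l with Coro2b, Gm11756 and Ceacam20 (0.994, 0.994 and 0.993). The rising Tet1 went with Hars, C2cd2l and Kri1 (0.994, 0.994 and 0.990) and Tet2 with Hsp90aa1, Dhx16 and Lpcat4 (0.988, 0.987 and 0.986). Dppa3 went with Lmnb1, Trnt1 and Hnrnpc (0.995, 0.991 and 0.990), Dnmt3b with Ddx17, Ywhaq and Prdx6 (0.979, 0.979 and 0.972) and Dnmt1 with Cnnm2, Pcnx4 and Prr12 (0.978, 0.974 and 0.973). Dnmt3a, with Gm47003, Avpi1 and Tubb6, had the lowest values (0.936, 0.921 and 0.904). Within the set, r was 0.990 for Tet3 with Zfp57, 0.979 for Uhrf1 with Dnmt3l and -0.981 for Uhrf1 with Tet1. The libraries fall into stages, and these values are a description of that pattern.

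Between MERVL-KD and control embryos the set differed by less than 2-fold. Not one of the 10 genes was called at 2-fold at any stage, where 6.61% of all genes were called in 2-cell, 4.54% in 4-cell and 1.7% in 8-cell embryos. By the adjusted p alone, 3 of 10 passed at the 2-cell stage, 1 higher (Tet1) and 2 lower (Dppa3 and Zfp57), beside 14.1% of all genes, 6.7% higher and 7.39% lower. At the 4-cell stage 1 passed (Dppa3, lower), beside 10.8% of all genes, 4.92% higher and 5.84% lower. At the 8-cell stage 2 passed (Dppa3 and Tet2, lower), beside 5.06%, 1.5% higher and 3.56% lower. The median log2 fold changes of the members were -0.13, -0.01 and -0.18 at the 3 stages, and those of all genes 0.01, 0.03 and 0.01. Fold changes come from the fit of each stage, whose scaling differs slightly from that of the CPM values. The CPM values share 1 scale over 12 libraries. Differences of effects between stages come from the fit of all 12 libraries, so they need not equal the differences of these fold changes.

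**Figure D3:**
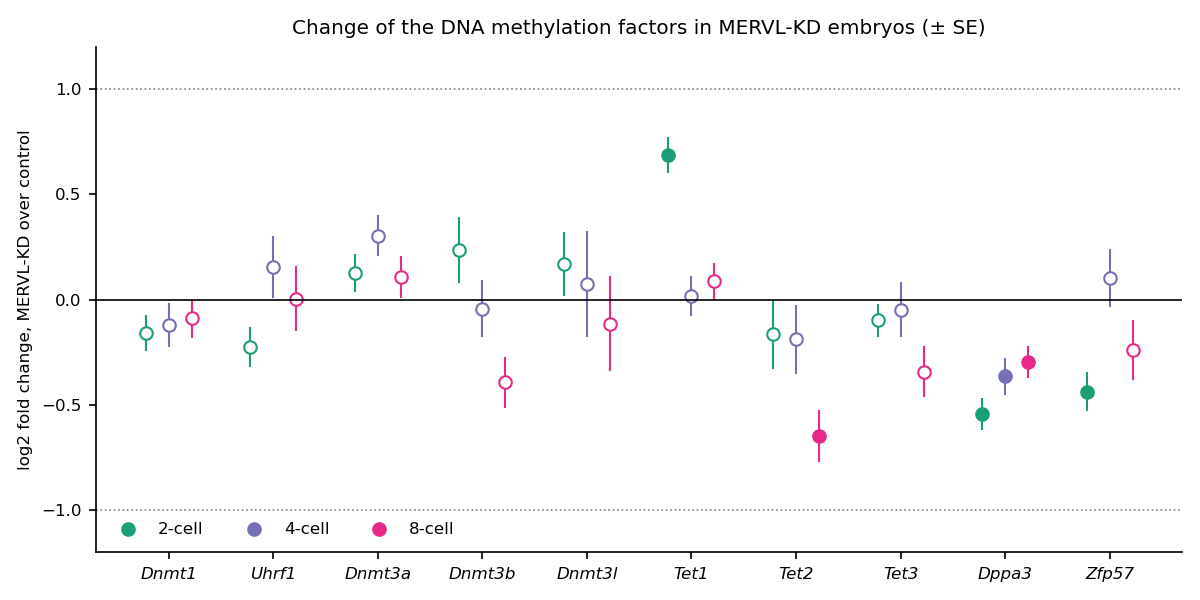
Log2 fold change of MERVL-KD over control (vertical axis, ± standard error from the fit) of the 10 genes at each stage, with filled points where the adjusted p was under 0.05 and dotted lines at 2-fold. Filled points are Tet1, Dppa3 and Zfp57 at the 2-cell stage, Dppa3 at the 4-cell stage, and Dppa3 and Tet2 at the 8-cell stage, all between the dotted lines.

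Tet1 was the member that rose. It was at 110.4 and 117 CPM in control and at 169.7 and 175 CPM in MERVL-KD 2-cell embryos, so both MERVL-KD libraries lay above both controls. The log2 fold change was 0.69 (SE 0.09, adjusted p = 6.50e-05 by edgeR's quasi-likelihood test), and the adjusted p stayed under 0.05 under every alternative tried. At the later stages the groups overlapped. The libraries held 337 CPM in both controls against 364 and 316 CPM at the 4-cell stage and 338 and 329 against 326 and 377 CPM at the 8-cell stage, with log2 fold changes of 0.02 and 0.09 (SE 0.10 and 0.09). In the fit of all 12 libraries, the effect at the 4-cell stage was lower than that at the 2-cell stage. The difference was -0.59 on the log2 scale (SE 0.14, adjusted p = 0.0173 by edgeR's interaction contrast). The effect at the 8-cell stage was also lower than at the 2-cell stage, with a difference of -0.53 (0.14, adjusted p = 0.0345 by the same contrast). Each of these adjusted p-values rose above 0.05 when single libraries were left out, to at most 0.0677 and 0.175. The rise of Tet1 from the 2-cell to the 4-cell stage was 0.98 (SE 0.10) in MERVL-KD and 1.57 (0.10) in control embryos.

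Tet2 fell in MERVL-KD at the 8-cell stage. It was at 66.3 and 67.9 CPM in control and at 46.5 and 38.8 CPM in MERVL-KD 8-cell embryos, without overlap. The log2 fold change was -0.65 (SE 0.12, adjusted p = 0.0125 by edgeR's quasi-likelihood test), the largest of the set at that stage. At the 2-cell stage Tet2 was at 16.7 and 16.1 against 15.0 and 12.6 CPM and at the 4-cell stage at 49.9 and 42.0 against 33.9 and 46.5 CPM, with log2 fold changes of -0.16 and -0.19 (0.17 and 0.16) that did not pass. The effects at the 8-cell and 4-cell stages were not shown to differ (-0.46, SE 0.22, adjusted p = 0.419 by edgeR's interaction contrast). Tet3 gave 502 and 492 against 433 and 444 CPM at the 2-cell stage and 70.2 and 68.7 against 59.9 and 49.1 CPM at the 8-cell stage, without overlap at either, and its log2 fold changes of -0.10 and -0.34 (0.08 and 0.12) had adjusted p-values of 0.462 and 0.145.

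At the 2-cell stage the share of Tet1 was 29.2% ± 0.154 in MERVL-KD and 19.3% ± 0.825 in control embryos (SD, n = 2) and that of Tet3 68.7% ± 0.138 and 78.2% ± 0.775. At the 8-cell stage the share of Tet1 was 79.6% ± 3.83 against 72.6% ± 0.389 and that of Tet2 8.89% ± 1.62 against 13.4% ± 0.409. Exact two-sided permutation tests gave p = 0.333 for each of these differences, the smallest value that 2 against 2 libraries allow.

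Dppa3 was lower in MERVL-KD embryos at every stage. The libraries held 754 and 798 CPM in control against 491 and 514 CPM in MERVL-KD 2-cell embryos, 1189 and 1086 against 836 and 925 CPM in 4-cell embryos, and 1416 and 1463 against 1103 and 1231 CPM in 8-cell embryos. The groups did not overlap at any stage. Log2 fold changes were -0.54 (SE 0.08, adjusted p = 0.000148), -0.36 (0.09, adjusted p = 0.0236) and -0.29 (0.08, adjusted p = 0.0476) by edgeR's quasi-likelihood test. The adjusted p at the 4-cell stage was 0.170 without control replicate 1, and at the 8-cell stage 0.173 and 0.246 without control replicate 1 or 2 and 0.0555 with all 12 libraries in one fit. The differences between the effects did not pass (4-cell against 2-cell 0.26, SE 0.13, adjusted p = 0.303 by edgeR's interaction contrast). Dppa3 still rose with development in MERVL-KD embryos, by log2 fold changes of 0.81 and 0.41 (SE 0.09 for both) at the 2 steps.

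Zfp57 was lower at the 2-cell stage, with 198 and 211 CPM in MERVL-KD against 312 and 273 CPM in control libraries. The log2 fold change was -0.44 (SE 0.09, adjusted p = 0.00460 by edgeR's quasi-likelihood test). It was at 52.5 and 52.3 against 62.9 and 49.3 CPM in 4-cell embryos, where the groups overlapped, and at 35.5 and 39.7 against 34.3 and 29.0 CPM in 8-cell embryos, with log2 fold changes of 0.10 and -0.24 (0.14 for both) that did not pass. The effect at the 4-cell stage minus that at the 2-cell stage was 0.62 (0.17, adjusted p = 0.0471 by edgeR's interaction contrast), and this adjusted p was lost without single libraries, up to 0.206. The difference of 0.62 came from the fit of all 12 libraries and need not equal that of the stage-wise effects above. In that fit Zfp57 fell from the 2-cell to the 4-cell stage by 1.86 on the log2 scale (0.13) in MERVL-KD embryos. In control embryos it fell by 2.48 (0.13).

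Other transcripts moved beside these 2-cell differences. The summed level of 10 oocyte transcripts, among them those of the zona pellucida, was 1204 and 1147 CPM in control and 735 and 839 CPM in MERVL-KD 2-cell libraries, 128 and 131 against 152 and 164 CPM at the 4-cell stage, and 120.5 and 127 against 124 and 112 CPM at the 8-cell stage, where the groups overlapped. A list of 9 genes known from the 2-cell stage, among them Zscan4c and Zfp352, summed to 1710 and 1731 against 966 and 1118 CPM at the 2-cell stage, 1390 and 1484 against 719.6 and 758 CPM at the 4-cell stage and 1693 and 1790.2 against 1019 and 1171 CPM at the 8-cell stage. Its control sums at the 8-cell stage overlapped those at the 2-cell stage, so this sum did not mark the 2-cell stage in these libraries. A sum can follow its most abundant genes, and values of the single genes are not given here. The 9 markers of the 8-cell stage summed to 255 and 265 against 230.1 and 241 CPM in 2-cell embryos, to 556 and 571 against 619 and 550.1 CPM in 4-cell embryos, where the groups overlapped, and to 749.5 and 783 against 660.1 and 718 CPM in 8-cell embryos. None of the genes of these 3 lists was at 0 in any library, and their part in the differences of Dppa3, Zfp57 and Tet1 was not tested.

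Among the members, the genes that set and copy methylation (Dnmt1, Uhrf1, Dnmt3a, Dnmt3b and Dnmt3l) did not pass in MERVL-KD at any stage. Dnmt1 was at 186 and 193 against 160.3 and 161 CPM at the 2-cell stage, without overlap, a log2 fold change of -0.16 (SE 0.08, adjusted p = 0.249 by edgeR's quasi-likelihood test). Uhrf1 was at 100.3 and 95.6 against 77.7 and 80.8 CPM, also without overlap, at -0.22 (0.10, adjusted p = 0.144). At the 4-cell and 8-cell stages the log2 fold changes of Dnmt1 were -0.12 and -0.09 and those of Uhrf1 0.15 and 0.01.

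Dnmt3a was the member with higher MERVL-KD libraries at each stage without overlap. It stood at 95.5 and 97.2 against 98.7 and 100.1 CPM, then at 89.3 and 86.7 against 108 CPM in both, then at 87.6 and 96.7 against 98.5 and 98.6 CPM. Log2 fold changes were 0.13, 0.30 and 0.11 (SE 0.09, 0.10 and 0.10), with adjusted p-values of 0.407, 0.0723 and 0.635. Dnmt3b at the 8-cell stage was at 52.2 and 55.5 against 42.4 and 39.1 CPM, a log2 fold change of -0.39 (0.12, adjusted p = 0.0862). Its log2 fold changes at the earlier stages were 0.24 and -0.04 (0.16 and 0.14). In Dnmt3l they were 0.17, 0.07 and -0.11 (0.15, 0.25 and 0.23). The groups of 8 members did not overlap at the 2-cell stage, of 2 at the 4-cell and of 7 at the 8-cell stage, beside 57.5%, 54.4% and 49.5% of all genes.

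**Figure D4:**
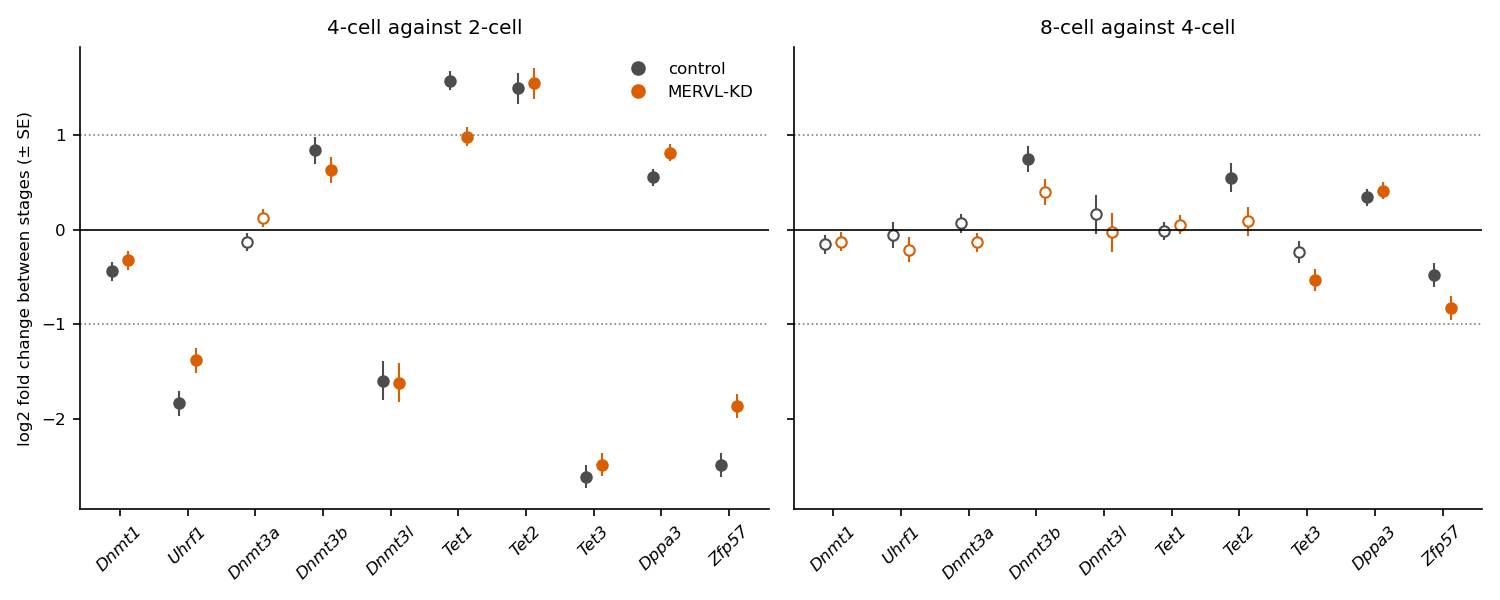
Log2 fold change between stages (vertical axis, ± standard error from the fit of 12 libraries) of the 10 genes in control (grey) and MERVL-KD (orange) embryos, 4-cell against 2-cell (left) and 8-cell against 4-cell (right), with filled points where the adjusted p was under 0.05. Each gene lies on the same side of 0 in both groups at the first step except Dnmt3a (-0.13 and 0.12). At that step Tet1, Zfp57, Uhrf1, Dnmt3b, Tet3 and Dnmt1 lie nearer to 0 in MERVL-KD embryos and Tet2, Dppa3 and Dnmt3l farther. Of these differences those of Tet1 and Zfp57 had an adjusted p under 0.05 by edgeR's interaction contrast.

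The steps between stages were also taken within the MERVL-KD embryos. From the 2-cell to the 4-cell stage 5 members were called in MERVL-KD embryos, 1 higher and 4 lower, beside 44.1% of all genes (21.2% higher and 23% lower), with Tet1 as the member called in control embryos alone. Uhrf1 had a log2 fold change of -1.38 (SE 0.13) in MERVL-KD and -1.83 (0.13) in control embryos, a difference that did not pass (0.46, SE 0.19, adjusted p = 0.197 by edgeR's interaction contrast). The others called were Tet2 (1.54), Dnmt3l (-1.61), Zfp57 (-1.86) and Tet3 (-2.48). From the 4-cell to the 8-cell stage none was called in MERVL-KD embryos, beside 1.64% of all genes, and Zfp57 (-0.83), Tet3 (-0.53) and Dppa3 (0.41) passed the adjusted p, which 4.68% of all genes did. Over the 3 comparisons of effects between stages 2, 0 and 1 members passed for the 4-cell against the 2-cell, the 8-cell against the 4-cell and the 8-cell against the 2-cell stage, beside 4.16%, 0.624% and 4.03% of all genes.

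Library size in place of TMM scaling moved the median log2 fold change of all genes by 0.29 in 2-cell and by 0.13 in 8-cell embryos, and the signs of Dnmt1, Uhrf1, Tet2 and Tet3 at the 2-cell stage turned with it. Relative to the median of all genes, over the 9 comparisons of groups or stages, library size turned the direction of 1 member in 1 comparison, Uhrf1 in MERVL-KD against control 8-cell embryos (-0.00024 with TMM and 0.0051 with library size). DESeq2 size factors turned Uhrf1 there as well and Tet1 between the control 4-cell and 8-cell stages (-0.0040 with TMM and 0.0054 with these factors). At the 2-cell stage Tet1 was 0.67 above and Dppa3 0.56 and Zfp57 0.45 below that median under both. A change of scaling shifts all genes by nearly the same amount, and taking the median away removes that shift. Agreement on this measure was therefore largely set in advance and is no test of a direction against the scaling.

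The genes that work with these factors were counted from 7 lists of 72 genes. These lists were chosen with earlier results of these data known. Counts above the share of all genes, here and in the next paragraphs, are therefore a description and no independent test. In 2-cell embryos 70 listed genes were tested and 5 were called, 3 higher and 2 lower. By the adjusted p alone 5 were higher and 15 lower. The median log2 fold change was -0.18 beside 0.01 for all genes. In 4-cell embryos 4 of 70 were called higher and 1 lower (5 and 12 by the adjusted p), and in 8-cell embryos 0 of 66 higher and 1 lower (1 and 7). Of all genes 4.37%, 2.66% and 0.641% were called higher and 2.24%, 1.88% and 1.06% lower at the 3 stages. By the adjusted p alone 6.7%, 4.92% and 1.5% of all genes were higher and 7.39%, 5.84% and 3.56% lower.

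Among the 8 helpers of maintenance, none rose and 3 fell by the adjusted p at the 2-cell stage, beside 6.7% of all genes higher and 7.39% lower. Lig1, the ligase that joins new DNA fragments, was called, at 20.1 and 16.4 CPM in control against 8.18 and 7.35 CPM in MERVL-KD libraries, a log2 fold change of -1.15 (SE 0.18, adjusted p = 0.000520 by edgeR's quasi-likelihood test). Uhrf2, the relative of Uhrf1, and Hells, a remodeller that opens heterochromatin to Dnmt1, followed at -0.72 and -0.43. Hells passed again at the 4-cell stage at -0.82. Here and in the next paragraphs, members of lists under 2-fold were named after their values had been seen.

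Of the 7 de novo helpers, Dnmt3c, a rodent methyltransferase known from the male germ line, was called at the 4-cell stage. It was at 5.93 and 5.59 CPM in control against 12.3 and 13.2 CPM in MERVL-KD libraries, a log2 fold change of 1.15 (SE 0.21, adjusted p = 0.00546 by edgeR's quasi-likelihood test). At the 2-cell and 8-cell stages it was -0.18 and 0.33 and did not pass. Part of Dnmt3b (4.42% of its transcript) matches Dnmt3c at 97% identity or more. Nsd1, which places the histone mark that guides Dnmt3a, fell by 0.48 and by 0.67 on the log2 scale at the 2-cell and 4-cell stages.

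Among 10 genes around imprint protection, 4 fell and none rose by the adjusted p at the 2-cell stage, beside 7.39% of all genes lower and 6.7% higher. At the 4-cell and 8-cell stages 9 were tested, and 1 rose and 2 fell at each, beside 4.92% higher and 5.84% lower and then 1.5% higher and 3.56% lower. Arid4a, a chromatin protein linked to imprinting, was called lower at all 3 stages. It was at 126 and 139.8 CPM in control against 48.6 and 44.7 CPM in MERVL-KD 2-cell embryos, 60.9 and 55.3 against 10.8 and 10.6 CPM in 4-cell embryos, and 45.3 and 46.4 against 6.41 and 5.90 CPM in 8-cell embryos. Log2 fold changes were -1.42, -2.44 and -2.89 (SE 0.10, 0.14 and 0.16), with adjusted p-values of 1.43e-07, 1.94e-06 and 7.22e-07 by edgeR's quasi-likelihood test. Trim28, the corepressor that Zfp57 recruits, fell by 0.33 in 4-cell and by 0.57 in 8-cell embryos, and Arid4b, the relative of Arid4a, rose by 0.57 and 0.64 at those stages.

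Arid4a, on the plus strand of chromosome 12, was also the listed gene whose introns carry sites of all 3 MERVL ASOs, at chr12:71077709-71077728, chr12:71079282-71079301 and chr12:71079534-71079553 of GRCm38. The genomic letters are shown because they pair with the oligonucleotides printed above, and a capital marks a base that does not pair.
Arid4a, ASO1 site: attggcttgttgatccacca
Arid4a, ASO2 site: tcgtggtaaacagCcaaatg
Arid4a, ASO3 site: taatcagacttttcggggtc
The first and the last had 0 mismatches and the middle one 1 mismatch. Counts from direct pairing of ASOs with the unspliced RNA and from loss of MERVL transcripts cannot be told apart here.

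**Figure D5:**
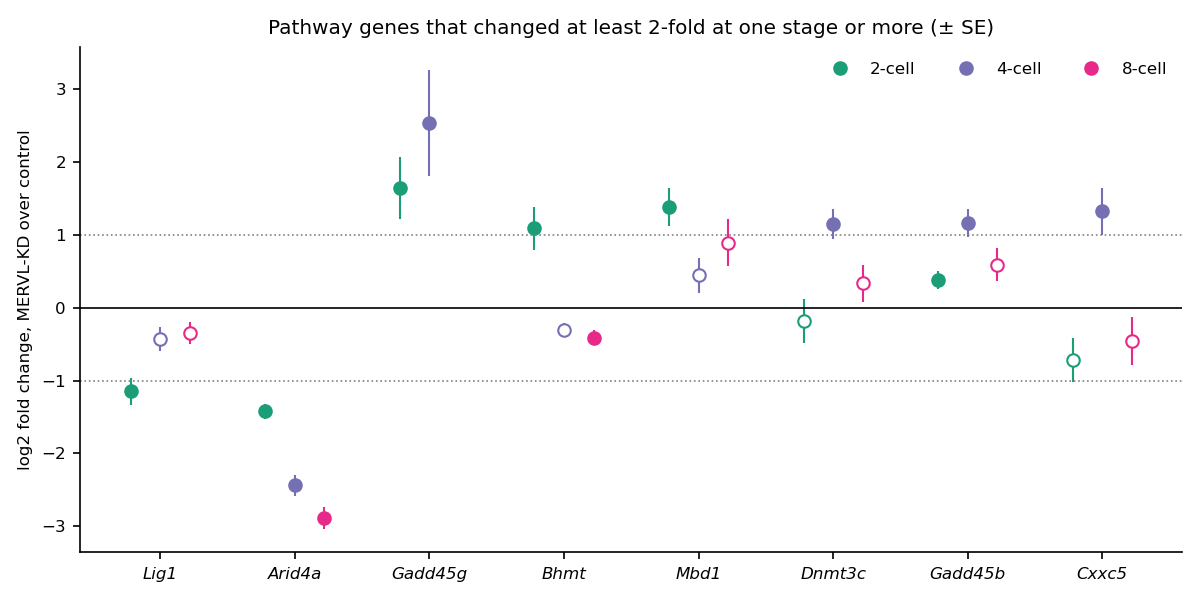
Log2 fold change of MERVL-KD over control (vertical axis, ± standard error from the fit) of the 8 listed genes called at one stage or more, with filled points where the adjusted p was under 0.05 and dotted lines at 2-fold. Arid4a lies at -1.42, -2.44 and -2.89 over the stages; Gadd45g has no 8-cell point because its counts did not pass the filter there.

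Of the partners of the Tet enzymes, 4 of 9 tested fell by the adjusted p at the 2-cell stage and none rose, beside 7.39% of all genes lower and 6.7% higher. Dcaf1, a subunit of the ubiquitin ligase that modifies Tet proteins, fell by 1.00 (adjusted p = 2.25e-06 by edgeR's quasi-likelihood test) and Ogt, the enzyme that binds Tet proteins and adds sugar, fell by 0.43. Cxxc5, a DNA-binding protein related to the Tet2 partner Cxxc4, was called at the 4-cell stage, with 2.44 and 1.91 CPM in control against 6.07 and 4.82 CPM in MERVL-KD libraries (log2 fold change 1.32, SE 0.32). In 2-cell and 8-cell embryos its values were -0.72 and -0.46 and did not pass.

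In the repair list, whose genes replace oxidised or deaminated bases, the genes called were Gadd45g and Gadd45b, which encode small stress-induced proteins. Gadd45g was at 0.925 and 0.578 CPM in control against 2.19 and 2.26 CPM in MERVL-KD 2-cell embryos and at 0.284 and 0.139 against 0.824 and 1.69 CPM in 4-cell embryos, with log2 fold changes of 1.65 and 2.54 (SE 0.43 and 0.73) on 4 to 92 counts in a library. The adjusted p of Gadd45g in 4-cell embryos was 0.0472 by edgeR, 0.0574 by DESeq2 and up to 0.318 with 1 library left out. Gadd45b was at 7.15 and 8.27 against 16.3 and 18.2 CPM in 4-cell embryos, at 1.17 (0.20, adjusted p = 0.00312 by edgeR's quasi-likelihood test), and at 0.38 in 2-cell embryos. In all, 2 of the 18 repair genes tested rose and 0 fell by the adjusted p at the 2-cell stage, beside 6.7% and 7.39% of all genes, and 2 rose and 2 fell at the 4-cell stage, beside 4.92% and 5.84%. No repair gene passed at the 8-cell stage by the adjusted p, out of 15 tested.

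In the lists of readers and of methyl donor metabolism 1 gene each was called, both in 2-cell embryos. Mbd1, which binds methylated DNA, was at 2.68 and 2.92 against 7.89 and 5.88 CPM (log2 fold change 1.38, SE 0.26). Bhmt, which remakes methionine from betaine, was at 2.58 and 2.42 against 6.06 and 3.96 CPM (1.09, SE 0.30), and its adjusted p was 0.238 without MERVL-KD replicate 1 and 0.0681 without control replicate 2. At the 8-cell stage Bhmt passed the other way, at 434 and 432 against 285 and 363 CPM (-0.41, SE 0.11).

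Between stages of control embryos the listed genes moved as widely as the members did. From the 2-cell to the 4-cell stage 36 of 72 were called, 17 higher and 19 lower, where 45% of all genes were. Bhmt rose from 2.58 and 2.42 to 254 and 256 CPM (log2 fold change 6.67, SE 0.18) and Ahcy, which clears the by-product of methylation, from 0.765 and 0.661 to 12.5 and 12.1 CPM (4.10, SE 0.27). Gadd45a fell from 26.7 and 28.0 to 2.36 and 2.81 CPM (-3.40, SE 0.24), and Ctcfl, the germline relative of the insulator protein Ctcf, from 2.14 and 1.60 to 0.170 and 0.278 CPM (-3.05, SE 0.98). From the 4-cell to the 8-cell stage only Gadd45a (-1.74) and Mbd1 (-1.09) were called. Near-identical copies of the listed genes were not sought.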

How the data were processed

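Total RNA of pooled embryos had been sequenced after rRNA depletion with a stranded kit. The authors aligned reads to GRCm38 with STAR 2.5.3a, kept unique alignments, and, using featureCounts, counted GENCODE genes and repeat types and deposited raw counts, 56326 features for each of 12 libraries. The strand and pair settings are not given in the sources used here. The ATAC-seq libraries were not analysed here.

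Log2 fold changes were computed with edgeR 4.0.16 in R 4.3.3 (filterByExpr, TMM, robust quasi-likelihood test, Benjamini-Hochberg over all tested features). MERVL-KD and control were compared stage by stage in 4 libraries, stages and differences of effects in one fit of 12 libraries. CPM values use the TMM factors of the 12 libraries. Calls needed a change of 2-fold or more with an adjusted p under 0.05; differences of effects needed the adjusted p alone. Errors come from the spread between pools within groups, with an estimate that borrows from other features. In the fit of 12 libraries the 6 groups share that estimate. The errors cover pools such as these only. The counts carry no molecular identifiers, so amplified copies of a molecule were not told apart. Replicates of a group differed by more than counting noise (chi-square per degree of freedom 10.4 to 17.7).

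Alternatives were DESeq2 1.42.0, its size factors, library size, other filters, a replicate block, a non-robust fit, genes only, one fit of 12 libraries, no fold threshold and each library left out. Counts halved and a crossed block were added after seeing the data. The members and lists were chosen with earlier results of these data known. Named were all 10 members, listed genes called in MERVL-KD, the 2 listed genes with the largest called change in each direction between control stages, and the 3 genes most like each member. ASO sites were sought with up to 4 mismatches, and copies of transcripts with BLAST 2.17.0 at 97% identity over at least 150 bases. The exact permutation tests used SciPy 1.17.1. The fits were tested on simulated data. A result for 1 listed gene is not reported here.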

Additional observations from a re-analysis of the deposited data

Results flagged for a closer look

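These differences of the MERVL-KD effect between stages passed the interaction contrasts of edgeR's quasi-likelihood fit of 12 libraries (Benjamini-Hochberg adjusted p under 0.05), and values are the log2 fold change at the later stage minus that at the earlier one. Among the methylation factors, Tet1 differed by -0.59 (adjusted p = 0.0173) between the 4-cell and the 2-cell stage and by -0.53 (adjusted p = 0.0345) between the 8-cell and the 2-cell stage, and Zfp57 by 0.62 (adjusted p = 0.0471) between the 4-cell and the 2-cell stage.

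Of the listed genes, those that differed upward between the 4-cell and the 2-cell stage were Cxxc5 (2.12), Dnmt3c (1.41), Uhrf2 (1.02), Arid4b (0.90), Zfp42 (0.88), Gadd45b (0.86), Xrcc1 (0.77), Cul4b (0.71), Ogt (0.69) and Dcaf1 (0.63). Bhmt (-1.32) and Arid4a (-0.93) differed downward. Between the 8-cell and the 2-cell stage 5 differed, Dcaf1 (0.97), Arid4b (0.96), Lig1 (0.88), Arid4a (-1.39) and Bhmt (-1.43), and between the 8-cell and the 4-cell stage none did. All genes gave 4.16%, 4.03% and 0.624%.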

How the results depend on the processing

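Tet1 in 2-cell embryos kept its direction and an adjusted p under 0.05 under every alternative, with log2 fold changes from 0.60 to 0.98. Dppa3 kept its direction at the 3 stages under every alternative, Zfp57 at the 2-cell and Tet2 at the 8-cell stage. With library size alone in place of TMM, the adjusted p by edgeR's quasi-likelihood test was 0.277 for Zfp57 (-0.15) in 2-cell embryos. It was 0.191 for Dppa3 (-0.17) and 0.0502 for Tet2 (-0.52) in 8-cell embryos. Dnmt3a (0.42), Dnmt3b (0.52) and Dnmt3l (0.46) then passed in 2-cell and Dnmt3a (0.37) in 4-cell embryos. Between the control 4-cell and 8-cell stages Dnmt1 (-0.36) and Tet3 (-0.44) gained and Tet2 (0.34) and Dppa3 (0.14) lost an adjusted p under 0.05. Between these stages of MERVL-KD embryos Dppa3 (0.27) lost it. That scaling moves the median of all genes, and it turned the calls of all genes in 2-cell embryos from 900 higher and 462 lower to 1710 higher and 294 lower. Depth limits Gadd45g and Ctcfl, which held at most 92 and 67 counts in a library.

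Library size also turned the sign of MERVL-KD effects that had not passed, for Tet2 (0.13), Tet3 (0.19), Dnmt1 (0.13) and Uhrf1 (0.064) in 2-cell, Dnmt3b (0.022) and Tet3 (0.020) in 4-cell and Dnmt1 (0.039) and Dnmt3l (0.017) in 8-cell embryos. Between control stages it turned Dnmt3a (0.038, then -0.14) and Dnmt3l (-0.045 at the second step), and between MERVL-KD stages Dnmt3a (-0.012), Tet2 (-0.041) and Tet1 (-0.093). The filter of 10 counts in every library gave -0.027 for Dnmt3a between MERVL-KD 2-cell and 4-cell embryos, DESeq2 gave 0.028 and its size factors in edgeR 0.029 for Tet1 between control 4-cell and 8-cell embryos, and one fit of 12 libraries gave -0.0034 for Uhrf1 in 8-cell embryos.

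Counts of calls over all genes moved by over 1.5 times in these cases. Without the fold threshold MERVL-KD gave 2904, 2125 and 932 at the 3 stages, and the 8-cell against the 4-cell stage 1411 in control and 1125 in MERVL-KD embryos. A filter of 1 count in total gave 496 for MERVL-KD in 8-cell embryos, 604 for the 8-cell against the 4-cell stage of MERVL-KD embryos and 449 for the difference of effects between these stages. Library size gave 596 for the 8-cell against the 4-cell stage of control embryos and 1500.0 for the difference of effects between the 4-cell and 2-cell stages. DESeq2 gave 1573 for that difference and 446 for the 8-cell against the 4-cell stage. With 10 counts in every library, fewer genes were tested and 7809 and 7582 were called between the 8-cell and the 2-cell stage.

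Leaving out 1 library gave 348 to 529 calls for MERVL-KD in 8-cell embryos (497 and 529 without MERVL-KD replicate 1 or 2), 247 to 308 between the control 4-cell and 8-cell stages (249 and 247 without 4-cell or 8-cell replicate 1) and 181 to 451 between those of MERVL-KD embryos (181 without 8-cell replicate 2). The differences of effects ranged from 515 to 964 (4-cell against 2-cell), from 93 to 272 (8-cell against 4-cell) and from 550 to 885 (8-cell against 2-cell). Members that had not passed changed sign within these ranges. In 4-cell MERVL-KD embryos they were Tet2 (-0.43 to 0.015), Tet3 (-0.24 to 0.12), Tet1 (-0.096 to 0.12), Dnmt3l (-0.078 to 0.23) and Zfp57 (-0.091 to 0.27), and in 8-cell embryos Tet1 (-0.022 to 0.18) and Uhrf1 (-0.16 to 0.15). From the 4-cell to the 8-cell stage they were Dnmt3a (-0.016 to 0.16) and Uhrf1 (-0.12 to 0.0036) in control and Tet2 (-0.12 to 0.37), Tet1 (-0.028 to 0.16) and Dnmt3l (-0.10 to 0.092) in MERVL-KD embryos. A group of 1 library was assumed to vary like the others.

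Shares from raw counts, without division by length, were 18.1%, 72.5% and 70.9% for Tet1 in control and 27.6% and 74.0% in MERVL-KD 2-cell and 4-cell embryos. They were 72.1%, 69.6% and 60.2% for Dnmt3a in control and 71.0%, 74.1% and 67.6% in MERVL-KD embryos, above the shares per kilobase because Dnmt3a has the longest exons of its family.

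The replicate numbers are common to the groups, but deviations of same-numbered libraries correlated at -0.130 in 2-cell, 0.023 in 4-cell and 0.031 in 8-cell embryos, so the numbers do not pair them. With the replicate number as a block 1321, 806 and 409 genes were called in MERVL-KD against control, no member gained or lost an adjusted p under 0.05, Gadd45g in 4-cell embryos (adjusted p = 0.0906) and Gadd45b in 2-cell embryos (0.0693) no longer passed in edgeR, and Uhrf1 in 8-cell embryos was at -0.0013. A crossed block at the 2-cell stage, chosen after seeing the data, gave 1254 calls. Halved counts, also chosen then, left each of these counts within 1.5 times. Where values moved, the cause was not tested beyond what is said above.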
